A study of Homo sapiens with 4 samples.

Results

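The genes described here are 10 members of the Toll-like receptor pathway: the receptor genes TLR2, TLR3, TLR4 and TLR6, the adaptor gene MYD88, the kinase genes IRAK1, IRAK2, IRAK3 and IRAK4, and the ubiquitin ligase gene TRAF6. They were chosen by name, with earlier results of these data known. They were matched to the gene symbols of the count files, which list 61228 genes, and all 10 were found. RNA-seq counts were available for 4 libraries of H1792, an established human lung adenocarcinoma line whose genotype the labels give as WT. The 2 control libraries came from cells given the solvent DMSO and the 2 others from cells given ACBI1 at a dose labelled 1 mM, which could not be checked here, each for 96 h. ACBI1 is a PROTAC, a molecule that brings a target protein to the VHL ubiquitin ligase for degradation, and its targets are SMARCA2, SMARCA4 and PBRM1 of the SWI/SNF chromatin remodelling complexes. The line stands for a single tumour. The labels number the libraries of a group as replicates without saying whether they came from separate cultures, so the p-values measure only the spread between these libraries, which may be technical.

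Toll-like receptors recognise molecules of microbes and of damaged cells. TLR2, which pairs with TLR6 or TLR1, binds lipoproteins at the cell surface, TLR4 binds lipopolysaccharide there, and TLR3 binds double-stranded RNA in endosomes. TLR2, TLR4 and TLR6 recruit MYD88, which assembles IRAK4 with IRAK1 or IRAK2 and hands the signal to TRAF6 and from there to NF-kB, whereas TLR3 signals through the adaptor TRIF. Receptors of the interleukin-1 family use the same MYD88 and IRAK proteins, and airway epithelial cells are known to carry both kinds of receptor.

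Counts assigned to genes summed to between 64281850 and 86010100 per library. Levels are given as CPM, the count unit scaled for library size, here with TMM factors. Transcripts of the degrader's targets did not pass the test (edgeR adjusted p 0.163 for SMARCA2, 0.0583 for SMARCA4 and 0.734 for PBRM1). SMARCA4, with a log2 change of 0.70, was close to the threshold and was called higher in 6 of 9 alternative fits (adjusted p 0.00834 to 0.0571). Transcripts do not report on the loss of the proteins. Of 8 leukocyte markers, 2 had 0 counts in every library (CD3E and CD163), and the summed level of all 8 was 0.344 and 0.667 CPM with DMSO and 0.760 and 0.442 CPM with ACBI1, so that receptor transcripts were read in libraries nearly free of these markers. Other genes cover 85.8% of the exons of CD68 and 34.0% of those of LYZ, so reads of these markers may have been dropped. Of 6 epithelial markers, CDH1 was as rare as the leukocyte markers, with 4 to 16 counts. The summed level of the 6 was 982 and 1035 CPM with DMSO and 323 and 202 CPM with ACBI1. KRT7 was most of it with DMSO (678 and 680 CPM) and in ACBI1 replicate 1 (179 CPM). In ACBI1 replicate 2 KRT7 was at 60.3 CPM, below KRT18 at 75.1 CPM. The 4 keratins fell, while EPCAM was at 5.38 and 2.78 CPM with DMSO and 15.6 and 4.84 CPM with ACBI1 and was not called (log2 change 1.32, adjusted p 0.179). The part of this shift in the results below was not tested. In such bulk libraries fewer cells that express a gene and less RNA per cell cannot be told apart.

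In the GENCODE release 29 annotation of GRCh38, the receptor genes lie at chr4:153684070-153705702 (TLR2), chr4:186069152-186088069 (TLR3), chr9:117704175-117724730 (TLR4) and chr4:38823715-38856817 (TLR6). MYD88 lies at chr3:38138478-38143022, IRAK1 at chrX:154010500-154019980, IRAK2 at chr3:10164865-10243743, IRAK3 at chr12:66188879-66254622, IRAK4 at chr12:43758944-43789543 and TRAF6 at chr11:36487027-36510272. Exons of other genes overlap at most 4.20% of the exonic length of any of the 10, the highest share being that of TLR4. TLR6 lies beside TLR1 and TLR10, which resemble it in sequence, so some reads of TLR6 could be assigned to its relatives or dropped.

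Since most of the 10 genes were lower with ACBI1 and IRAK1 was higher, the stretches around their start sites were read for motifs of the factors that act at the end of the pathway. RefSeq promoters (GRCh38.p14, 250 bases before to 50 bases after the start) were at hand for all 10. The motifs, searched on both strands, were the NF-kB consensus, the AP-1 motif TGANTCA and the interferon element, which is GAAA, any 2 bases and GAAA, and none of the matches overlapped each other. Among 35116 promoters of the same length, 11.3% held an NF-kB match, 7.71% an AP-1 match and 3.57% an interferon element. Among the 17740 promoters of tested genes, the shares were 13.4%, 5.59% and 3.02%. For NF-kB, 1 gene of the 10 held a match, which is not above these shares. For AP-1, IRAK1 alone held a match, and TLR3 and MYD88 held an interferon element, which is above the shares of these motifs. Such small numbers of genes were not tested against the shares. Shown are TLR4, the gene with the largest change, both genes with an interferon element, TLR3 and MYD88, and IRAK1, the only gene of the 10 with an NF-kB or AP-1 match. Capitals mark the matches. The windows are chr9:117704153-117704452 on the plus strand for TLR4, chr4:186068906-186069205 on the plus strand for TLR3, chr3:38138411-38138710 on the plus strand for MYD88 and chrX:154019853-154020152 on the minus strand for IRAK1.
TLR4: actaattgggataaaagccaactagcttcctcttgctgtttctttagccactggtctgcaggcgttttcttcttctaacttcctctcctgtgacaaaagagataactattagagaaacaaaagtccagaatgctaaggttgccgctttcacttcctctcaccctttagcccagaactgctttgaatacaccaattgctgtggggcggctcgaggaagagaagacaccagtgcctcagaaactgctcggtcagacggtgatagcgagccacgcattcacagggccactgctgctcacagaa
TLR3: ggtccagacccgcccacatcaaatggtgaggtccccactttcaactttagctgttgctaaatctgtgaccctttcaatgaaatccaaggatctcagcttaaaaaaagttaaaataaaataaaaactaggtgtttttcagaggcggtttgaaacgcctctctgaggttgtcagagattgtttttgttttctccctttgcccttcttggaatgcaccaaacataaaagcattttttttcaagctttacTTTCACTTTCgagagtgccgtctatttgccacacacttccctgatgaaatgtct
MYD88: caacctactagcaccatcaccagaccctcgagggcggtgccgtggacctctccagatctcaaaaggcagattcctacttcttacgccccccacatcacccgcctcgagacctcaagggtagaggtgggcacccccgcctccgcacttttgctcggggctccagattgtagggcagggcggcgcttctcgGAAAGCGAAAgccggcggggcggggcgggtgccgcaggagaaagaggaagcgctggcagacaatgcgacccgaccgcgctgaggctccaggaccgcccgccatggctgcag
IRAK1: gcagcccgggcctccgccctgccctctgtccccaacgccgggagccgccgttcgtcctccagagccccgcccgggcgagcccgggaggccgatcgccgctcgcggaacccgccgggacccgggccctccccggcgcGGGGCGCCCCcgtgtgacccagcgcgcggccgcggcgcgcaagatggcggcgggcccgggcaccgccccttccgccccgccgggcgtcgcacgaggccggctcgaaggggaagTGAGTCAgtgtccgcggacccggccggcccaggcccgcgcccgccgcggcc

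The TLR3 match runs from base -4 to base 6 around the start on the reverse strand, and the MYD88 match from base -61 to base -52. In IRAK1 the NF-kB match spans bases -114 to -105 and the AP-1 match bases -1 to 6. The IRAK1 window is 83.0% G and C with 52 CpG dinucleotides, against a median of 58.7% and 14 over all promoters of the table. TLR3 and TLR6 have A and T rich windows, with 40.3% and 34.7% G and C and 5 CpG each. The windows of TLR2, TLR4, TLR6, IRAK2, IRAK3, IRAK4 and TRAF6 held none of the 3 motifs, which says only that these letters are not in these windows. A match is a description of the sequence and not a site known to be bound.

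**Figure D1:**
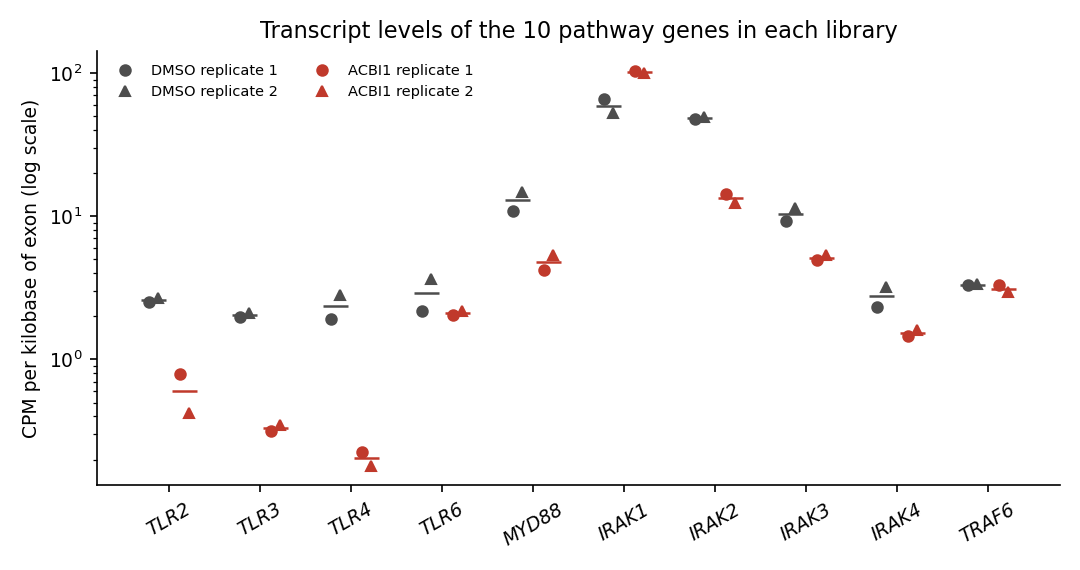
Levels of the 10 genes in CPM per kilobase of merged exon length (log axis) in each library, with DMSO in grey, ACBI1 in red, circles for replicate 1, triangles for replicate 2 and bars for group means. TLR2, TLR3, TLR4, MYD88, IRAK2, IRAK3 and IRAK4 lie lower in both ACBI1 libraries, IRAK1 lies higher, and the groups overlap or nearly touch for TLR6 and TRAF6.

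Transcripts of 3 of the 4 receptors fell with ACBI1. TLR4 was at 25.3 and 37.5 CPM in DMSO replicates 1 and 2 and at 3.02 and 2.41 CPM in ACBI1 replicates 1 and 2. Both ACBI1 libraries were far below both DMSO libraries. Its log2 change was -3.53 (SE 0.28, edgeR adjusted p 0.00243), a level 11.6-fold lower with a 95% interval of 7.15 to 18.7, and 2.27% of all tested genes had a change as low or lower. TLR3, the double-stranded RNA receptor, was at 13.3 and 14.2 CPM with DMSO and at 2.13 and 2.35 CPM with ACBI1. The replicates of each group lay close together and the groups far apart, with a log2 change of -2.62 (SE 0.25, adjusted p 0.00357), 6.14-fold lower (95% interval 4.05 to 9.29). TLR2 was at 13.2 and 14.03 CPM with DMSO and at 4.10 and 2.21 CPM with ACBI1. The ACBI1 libraries differed from each other here, but both were below the controls, and the log2 change was -2.11 (SE 0.35, adjusted p 0.0141), 4.31-fold lower (95% interval 2.40 to 7.74).

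TLR6, which forms the receptor for diacylated lipoproteins together with TLR2, did not pass the test. It was at 13.1 and 22.03 CPM with DMSO and at 12.3 and 13.1 CPM with ACBI1. DMSO replicate 1 lay within the range of the ACBI1 libraries and DMSO replicate 2 above it. The log2 change of -0.46 (SE 0.28, adjusted p 0.303) had a 95% interval from -1.16 to 0.23, which admits a fall of up to 2.23-fold as well as no change. Without DMSO replicate 2 the log2 change of TLR6 was -0.04, and without DMSO replicate 1 it was -0.79. The difference in change between TLR6 and the other receptors was not tested, but in every library the ratio of the levels per kilobase can be read directly. TLR4 over TLR6 was 0.882 and 0.775 with DMSO and 0.112 and 0.0833 with ACBI1, and TLR3 over TLR6 was 0.916 and 0.578 against 0.156 and 0.160. TLR2 over TLR6 was 1.17 and 0.736 against 0.386 and 0.195. For all 3 ratios both ACBI1 values were below both DMSO values.

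MYD88, the adaptor that links most Toll-like receptors and the interleukin-1 receptors to the IRAK kinases, fell. It was at 43.7 and 59.3 CPM with DMSO and at 16.9 and 21.3 CPM with ACBI1. The groups were separate, with a log2 change of -1.43 (SE 0.22, adjusted p 0.0117), 2.70-fold lower (95% interval 1.86 to 3.92).

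Of the 4 IRAK genes, 2 fell, 1 rose and 1 was not called. IRAK2, a kinase that sustains the signal, fell from 167 and 171 CPM with DMSO to 49.5 and 43.5 CPM with ACBI1. The DMSO replicates were nearly equal and far above the ACBI1 libraries, and the log2 change was -1.86 (SE 0.16, adjusted p 0.00281), 3.63-fold lower (95% interval 2.76 to 4.78). IRAK3, which encodes IRAK-M, an inhibitor of the pathway, was at 92.7 and 114 CPM with DMSO and at 49.3 and 53.3 CPM with ACBI1. Its log2 change was -1.01 (SE 0.17, adjusted p 0.0156), 2.01-fold lower (95% interval 1.51 to 2.69). The call of IRAK3 was lost without ACBI1 replicate 1 (log2 change -0.95, adjusted p 0.0852) and without ACBI1 replicate 2 (-1.08, adjusted p 0.0529).

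IRAK1, the kinase that is activated by IRAK4 and binds TRAF6, was the only gene of the 10 that rose. It was at 262 and 210 CPM with DMSO and at 417 and 400 CPM with ACBI1, with both ACBI1 libraries above both controls. The log2 change was 0.79 (SE 0.19, adjusted p 0.0358), 1.73-fold higher (95% interval 1.27 to 2.37). This rise is close to the threshold. It was called without DMSO replicate 1 (0.97, adjusted p 0.0140), but not without DMSO replicate 2 (log2 change 0.64, adjusted p 0.104), ACBI1 replicate 1 (0.77, adjusted p 0.147) or ACBI1 replicate 2 (0.81, adjusted p 0.115). IRAK4, the kinase nearest to MYD88, was at 13.1 and 17.97 CPM with DMSO and at 8.27 and 9.06 CPM with ACBI1. Both ACBI1 values were below both DMSO values, but the log2 change of -0.84 (SE 0.24, 95% interval -1.43 to -0.25) missed the threshold with an adjusted p of 0.0627. It was called lower under 2 of the 9 alternative fits of the 4 libraries that did not use the replicate number, with adjusted p-values between 0.0135 and 0.0833 over those 9, and without DMSO replicate 1 (log2 change -1.05, adjusted p 0.0231).

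TRAF6, the ubiquitin ligase that passes the signal to the kinase TAK1, was at 16.1 and 16.3 CPM with DMSO and at 16.04 and 14.4 CPM with ACBI1. All 4 values lay close together although the ACBI1 pair was just below the controls. The log2 change was -0.09 (SE 0.19, adjusted p 0.783), and its 95% interval from -0.54 to 0.37 leaves out changes beyond 1.46-fold lower and 1.29-fold higher.

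**Figure D2:**
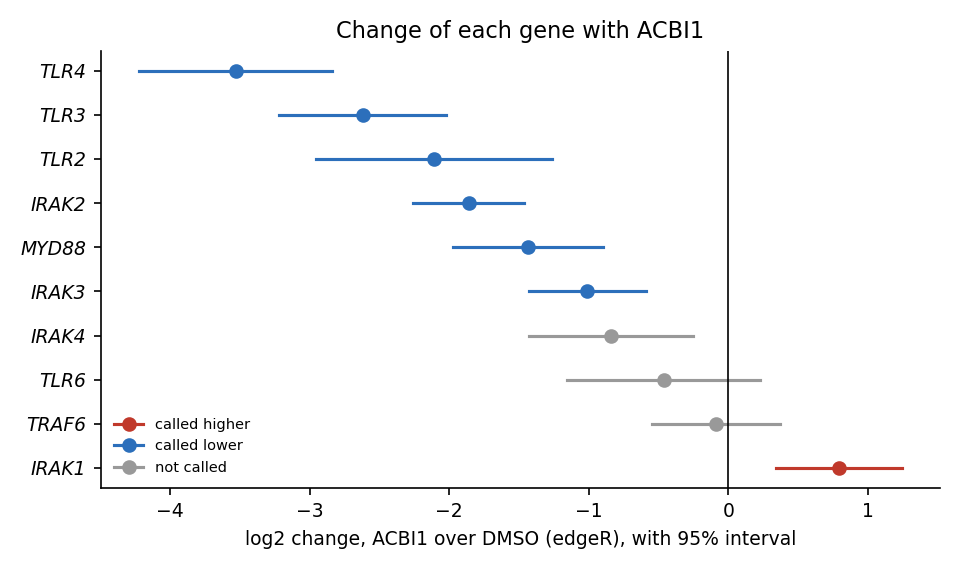
Log2 change of each of the 10 genes (points) with its 95% interval (lines) from edgeR, ordered by size, with called falls in blue, the called rise in red and the others in grey. The intervals of TLR6 and TRAF6 cross 0, and that of TLR4, from -4.22 to -2.84, lies lowest.

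Of the 10 genes, all of which passed the filter on low counts, 6 were called lower and 1 higher at an edgeR adjusted p under 0.05. Over all 19159 tested genes, 17.4% were called, 10.6% lower and 6.75% higher. The 10 had a median of -1.22 on the log2 scale and all tested genes one of 0.01. The values of the ACBI1 libraries lay below those of both DMSO libraries for 8 of the 10 genes and above them for 1, while 63.2% of all tested genes had groups that did not overlap, 32.2% with ACBI1 below. The share called among the 10 is above that of all genes, and the share of separate groups less so. Because the 10 were chosen with earlier results of these data known, this difference is no independent evidence. With each library left out in turn the median of the 10 ranged from -1.39 to -1.03.

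**Figure D3:**
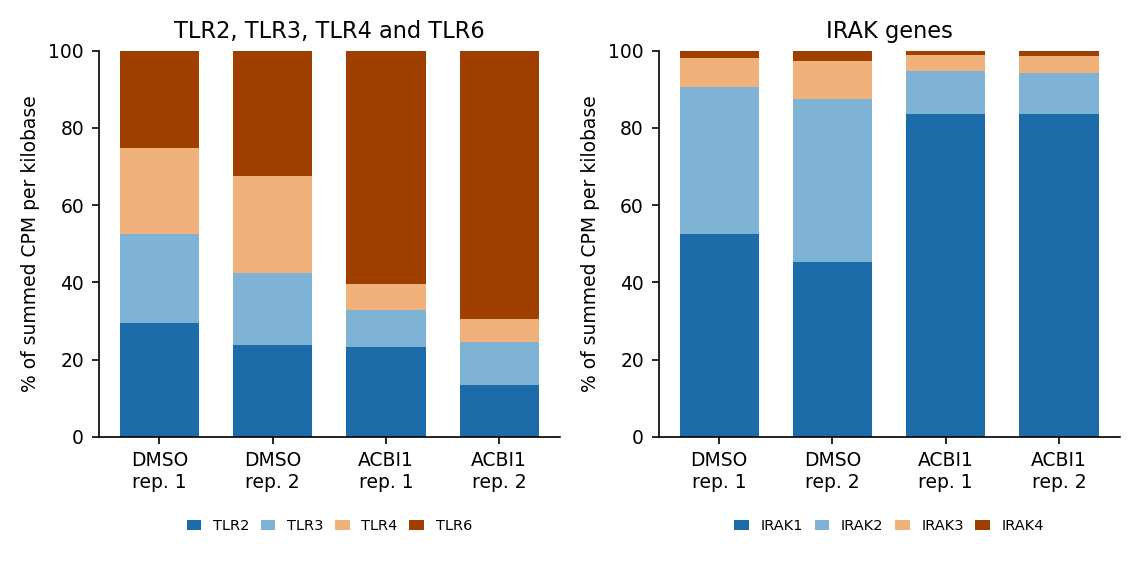
Share of each gene in the summed CPM per kilobase of the 4 receptors (left) and of the 4 IRAK genes (right), as stacked bars that reach 100% in each library. TLR6 made up 60.5% and 69.5% of the receptor sum in the ACBI1 libraries, and IRAK1 made up 83.5% and 83.7% of the IRAK sum.

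Levels per kilobase of exon put different genes on a common scale, but they depend on the merged exon lengths used. On this scale the makeup of both gene sets differed between the groups. The summed level of the 4 receptors was 8.59 and 11.3 CPM per kilobase with DMSO and 3.37 and 3.13 with ACBI1. Per kilobase, no receptor dominated with DMSO. TLR6 made up 25.2% and 32.4% of the sum, TLR2 29.5% and 23.8%, TLR4 22.2% and 25.1%, and TLR3 23.1% and 18.7%. With ACBI1, TLR6 made up 60.5% and 69.5%, TLR2 23.3% and 13.5%, TLR3 9.43% and 11.1%, and TLR4 6.75% and 5.79%. Every ACBI1 share of TLR6 was above, and every ACBI1 share of the other 3 receptors below, the DMSO shares. The level of TLR6 itself overlapped, at 2.16 and 3.65 CPM per kilobase with DMSO and 2.04 and 2.18 with ACBI1. In raw counts, without length, the shares of TLR6, TLR3 and TLR4 stayed separate in the same directions. Those of TLR2 overlapped (20.39% and 15.98% with DMSO, 19.04% and 10.99% with ACBI1). TLR4 then held the largest share with DMSO (38.98% and 42.76%).

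The summed level of the 4 IRAK genes was 125 and 116 CPM per kilobase with DMSO and 125 and 119 with ACBI1, so that the groups overlapped. Within that sum the share of IRAK1 was 52.5% and 45.1% with DMSO and 83.5% and 83.7% with ACBI1. The share of IRAK2 was 38.3% and 42.3% against 11.4% and 10.4%. IRAK3 held 7.41% and 9.81% against 3.95% and 4.46%, and IRAK4 held 1.86% and 2.75% against 1.18% and 1.35%. The ratio of IRAK1 to IRAK2 was 1.37 and 1.07 with DMSO and 7.34 and 8.01 with ACBI1. With 2 libraries a group the smallest exact permutation p is 0.333, so these shares and ratios carry no test.

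In the order of levels per kilobase with DMSO, IRAK1 (mean 59.0 CPM per kilobase, SD 9.28, n = 2) stood above IRAK2 (48.5, SD 0.896), and MYD88 (12.9, SD 2.77) and IRAK3 (10.3, SD 1.501) followed with overlapping ranges. TRAF6, TLR6, IRAK4, TLR2, TLR4 and TLR3 came next, between 3.32 and 2.05 CPM per kilobase, and each overlapped its neighbour in the order. With ACBI1 the order was IRAK1 (102, SD 3.05), IRAK2 (13.3, SD 1.23), IRAK3, MYD88, TRAF6, TLR6, IRAK4, TLR2, TLR3 and TLR4 (0.204, SD 0.0323), and IRAK3 and MYD88 were the only neighbours whose ranges overlapped. The highest mean was 28.8 times the lowest with DMSO and 499.7 times with ACBI1. On this scale TLR4 moved from the range of the other receptors to the lowest place, which rests on its merged exon length of 13.272 kb. In CPM without length, mean TLR4 was above mean TLR3 with DMSO (31.4 against 13.8) and with ACBI1 (2.71 against 2.24). Mean IRAK3 was then above mean IRAK2 with ACBI1 (51.3 against 46.5 CPM).

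**Figure D4:**
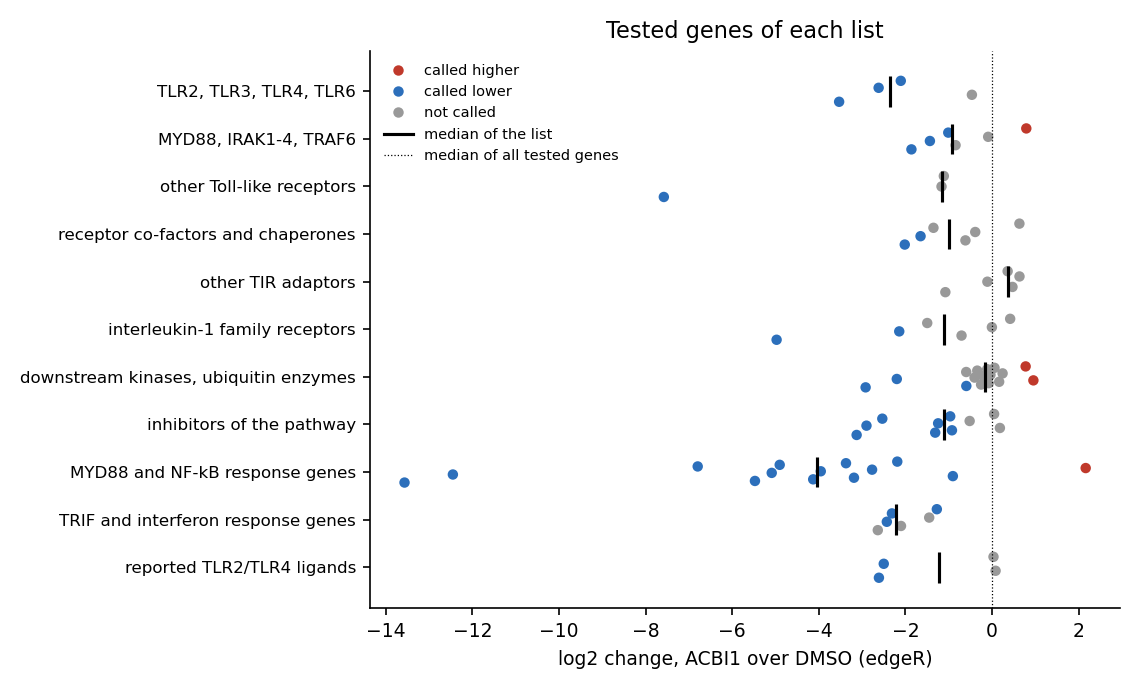
Log2 change of each tested gene (points; blue called lower, red called higher, grey not called) in the 10 genes and in 9 further lists of the pathway, with the median of each list as a bar and that of all tested genes as a dotted line. The MYD88 and NF-kB response genes lie lowest, with a median of -4.04, and the downstream kinases and ubiquitin enzymes lie near 0, with a median of -0.16.

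Around these 10 genes, 81 others of the pathway were read from 9 lists, and 70 of the 81 could be tested. Of those tested, 33 (47.1%) were called lower and 3 higher, against 10.6% lower and 6.75% higher over all tested genes. Among these falls, TLR7, IL1RL1, PELI2, IL1B and CSF2 had fewer than 10 counts in each ACBI1 library. They passed the filter on low counts only through the DMSO libraries, so their direction is no independent evidence. The lists were chosen with earlier results of these data known. Of the 33 falls, 13 come from the MYD88 and NF-kB response list, which holds genes already known from these libraries to be low. Among the other Toll-like receptors, 3 of 6 could be tested. TLR7, an endosomal receptor for single-stranded RNA, had 148 and 789 counts with DMSO and 4 and 1 with ACBI1, and its fall was called (log2 change -7.58, adjusted p 0.0117). The 2 DMSO values of TLR7 differed widely, and the fitted change, which depends on the prior count, was -5.77 without DMSO replicate 2, -8.35 without DMSO replicate 1 and -8.55 without ACBI1 replicate 1. TLR9 had 0 counts in every library, which allows at most 0.0467 CPM, but another gene covers 86.3% of its exons. Of the co-factors and chaperones of the receptors, 6 of 9 were tested and 2 were called lower, of which 0 remained called without ACBI1 replicate 1. LY96, which encodes the MD-2 protein that binds lipopolysaccharide with TLR4, fell from 0.540 and 0.751 CPM to 0.123 and 0.198 CPM (log2 change -2.01, adjusted p 0.0401). Only 24 counts stood behind its ACBI1 values, and of the fits that left out 1 library only the one lacking DMSO replicate 1 called LY96. The adjusted p was 0.129 when DMSO replicate 2 was left out, 0.200 for ACBI1 replicate 1 and 0.0866 for ACBI1 replicate 2. HSP90B1, the chaperone gp96 that folds Toll-like receptors, fell from 1605 and 2240 CPM to 504 and 721 CPM (log2 change -1.65, adjusted p 0.0138), and its adjusted p was 0.0543 when ACBI1 replicate 1 was left out. CD14, the other partner of TLR4, named after its values were seen, was below 1 CPM in every library. Among the 5 other adaptors with a TIR domain or like function, 0 were called by edgeR on treatment alone, by DESeq2 or by limma-voom. With edgeR, 1 had an unadjusted p under 0.05, TICAM2 (log2 change -1.08, unadjusted p 0.0433). Other genes cover 93.4% of the exons of TICAM2, 45.6% of those of SARM1 and 22.5% of those of TIRAP. Counts of these adaptors may thus miss reads, which limits what the lack of calls says.

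Receptors of the interleukin-1 family, which share MYD88 with the Toll-like receptors, had a median log2 change of -1.10 over 6 tested genes of 7. Of these 6, 2 were called lower, against 10.6% of all tested genes. IL1R1, the signalling receptor for interleukin-1, fell from 41.2 and 85.5 CPM to 13.5 and 15.2 CPM (log2 change -2.14, adjusted p 0.0137), and its change was -1.52 when DMSO replicate 2 was left out. IL1RL1, the receptor for interleukin-33, had 117 and 49 counts with DMSO and 3 and 2 with ACBI1 (log2 change -4.97, adjusted p 0.00788), with a change of -4.33 when DMSO replicate 1 was left out.

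Downstream of TRAF6, the 16 kinases and ubiquitin enzymes had a median log2 change of -0.16, with 3 called lower and 2 higher. Over all tested genes, 10.6% were called lower and 6.75% higher. The 3 called lower were MAP3K8, PELI2 and PELI1, the last close to the threshold (log2 change -0.59, edgeR adjusted p 0.0420). When either ACBI1 library was left out only 1 was called lower, and without ACBI1 replicate 2 there were 0 called higher. PELI1, a relative of PELI2, was called lower in none of the 4 fits that left out a library (adjusted p 0.0721 to 0.195). MAP3K8, the kinase TPL2 that links the pathway to ERK, fell from 22.3 and 29.6 CPM to 5.57 and 5.72 CPM (log2 change -2.20, adjusted p 0.00431). PELI2, a ubiquitin ligase that acts on IRAK proteins, had 36 and 38 counts against 8 and 2 (log2 change -2.92, adjusted p 0.0262). It was -3.91 without ACBI1 replicate 1 (adjusted p 0.0565) and -2.43 without ACBI1 replicate 2 (adjusted p 0.1000). TRAF3, a ubiquitin ligase of the TRIF and MYD88 complexes, rose from 129 and 104 CPM to 192 and 207 CPM (log2 change 0.78, adjusted p 0.0346), but TRAF3 was not called when DMSO replicate 2 (adjusted p 0.112), ACBI1 replicate 1 (0.108) or ACBI1 replicate 2 (0.1405) was left out. ECSIT, a TRAF6-binding protein with a role in mitochondria, rose from 35.1 and 41.1 CPM to 63.7 and 84.1 CPM (log2 change 0.96, adjusted p 0.0258), with an adjusted p of 0.112 when ACBI1 replicate 2 was left out.

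Of the 10 inhibitors of the pathway, 7 were called lower and 0 higher, with a median of -1.10 on the log2 scale. Over all tested genes, 10.6% were called lower and 6.75% higher. Only 4 were called lower when either ACBI1 library was left out, since SOCS1, SIGIRR and TANK then lost their calls. ZC3H12A, the ribonuclease Regnase-1, fell from 175 and 258 CPM to 18.5 and 31.1 CPM (log2 change -3.13, adjusted p 0.00459). TNFAIP3, the ubiquitin-editing enzyme A20, fell from 150.5 and 209 CPM to 24.6 and 23.6 CPM (log2 change -2.90, adjusted p 0.00231). SOCS1, a suppressor of cytokine signalling, fell too (log2 change -2.53, adjusted p 0.0230). Its change was -1.78 when DMSO replicate 2 was left out, and its adjusted p was 0.0529 with ACBI1 replicate 1 and 0.0619 with ACBI1 replicate 2 left out. CYLD, a deubiquitinase, fell less (log2 change -1.31, adjusted p 0.0103). IRAK3, described above, is a further inhibitor by function and fell as well.

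The 14 response genes of MYD88 and NF-kB had a median log2 change of -4.04, with 13 called lower and 1 higher. This list holds genes already known from these libraries to be low with ACBI1, so its direction is no independent evidence. IL1B, which is also a ligand of the pathway's interleukin-1 receptors, had 52994 and 23111 counts with DMSO and 5 and 1 with ACBI1 (fitted log2 change -13.57, adjusted p 0.00126), and the fit gave -12.96 with DMSO replicate 1 left out and -14.80 with ACBI1 replicate 1 left out. CSF2 had 33047 and 18690 counts against 6 and 3 (log2 change -12.45, adjusted p 0.000700). IL6 fell from 316 and 134 CPM to 2.33 and 1.69 CPM (log2 change -6.80, adjusted p 0.00231), its change was -6.04 when DMSO replicate 1 was left out, and other genes overlap 20.7% of its exonic length. CXCL8 fell from 3722 and 2237 CPM to 49.0 and 85.0 CPM (log2 change -5.47, adjusted p 0.00231). BIRC3, an inhibitor of apoptosis and NF-kB target, was named after its values were seen, as the only gene of the list that rose. It was at 136 and 109 CPM with DMSO and 746 and 356 CPM with ACBI1 (log2 change 2.16, adjusted p 0.0154). The BIRC3 change was 1.54 when ACBI1 replicate 1 was left out.

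Of the 8 response genes of TRIF and interferon, the branch that TLR3 uses, 6 were tested. All 6 had negative log2 changes with a median of -2.21, and 3 were called lower. Over all tested genes, 49.6% had negative changes and 10.6% were called lower. With DESeq2, or with every gene that had a count, 5 were called lower, CCL5 and IFIT1 being added. The 3 were IFIT2 (log2 change -2.43, adjusted p 0.0182), IFIT3 (-2.31, adjusted p 0.00765) and ISG15 (-1.27, adjusted p 0.0256). When ACBI1 replicate 1 was left out, IFIT2 (adjusted p 0.0599) and ISG15 (0.0957) were not called. Other genes cover 10.3% of the exons of IFIT2. Among 6 secreted proteins reported as ligands of TLR2 or TLR4, 4 were tested and 2 were called lower. These were the proteoglycan gene BGN (log2 change -2.61, adjusted p 0.0400) and the matrix gene TNC (-2.50, adjusted p 0.0231). Leaving out ACBI1 replicate 1 gave -4.03 for BGN and -3.28 for TNC, and leaving out ACBI1 replicate 2 gave -1.93 for BGN.

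The nearest tested protein-coding genes that lie wholly to either side of each of the 10 were read as well, which leaves out TLR1, whose annotated span covers TLR6, to see whether whole stretches of the genome moved with them. Of these 20 neighbours, 18 were not called, 1 was lower and 1 higher, where 17.4% of all tested genes were called. The lower one was SORBS2, which lies 112.5 kb from TLR3 (log2 change -3.21, adjusted p 0.00788), and the higher one was ASTN2, which lies 289 kb from TLR4 (log2 change 1.25, adjusted p 0.0316). On the other side of TLR4 the nearest one, CDK5RAP2, lies 2664 kb away (log2 change 0.30, adjusted p 0.383). For TLR4 the neighbours thus do not cover the stretch close to the gene. MYD88 fell between ACAA1 (log2 change -0.44, adjusted p 0.142) at 1.24 kb and OXSR1 (log2 change 0.00, adjusted p 0.995) at 22.1 kb. IRAK2 fell between VHL (log2 change -0.17, adjusted p 0.489) and TATDN2 (log2 change 0.51, adjusted p 0.106). The difference in change between a gene and its neighbours was not tested.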

How the data were processed

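RNA was measured by sequencing in 4 libraries of H1792 cells, 2 with DMSO and 2 with ACBI1, grouped and numbered by the sample titles. The deposited values are raw counts of reads per gene symbol, 1 file per library. The submitters' processing notes name TopHat2 2.1.1, HTSeq 0.11.0 and hg38, and the annotation and strand setting are not given in the sources used here, so reads from overlapping or near-identical genes may be misassigned. Lines for reads given to no gene held 13.9% to 15.4% of the reads listed and were left out.

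From the counts, genes were filtered with filterByExpr (minimum count 10, minimum total count 15), scaled by TMM and compared by the two-sided quasi-likelihood test of edgeR 4.0.16 (R 4.3.3) on treatment alone, with Benjamini-Hochberg adjustment over 19159 genes and a call at an adjusted p under 0.05. The SE is the change divided by the root of F, and intervals are at 95%. Exonic lengths are merged exons of GENCODE release 29, and promoters are RefSeq's. The scripts were tested on counts simulated with the same spread for every gene. That setting is simpler than these data, so it checks the code and not the error rate here. The floor for 0 counts is 3 counts and covers counting error only. The 10 genes, the lists and the rule for naming (up to 4 called genes per list, taken by size of change) were chosen with earlier results of these data known. The neighbours were chosen after the values were seen, as were the names SIGIRR, TANK, PELI1, CCL5, IFIT1, TICAM1, EPCAM and KRT7. KRT18, CD68, LYZ, TICAM2, SARM1 and TIRAP were likewise named after the values were seen. Alternatives were scaling by library size only, by upper quartile or by DESeq2 size factors, other filters, the replicate number as a block, DESeq2 1.42.0, limma-voom (limma 3.58.1), robust and newer edgeR fits, stricter thresholds and each library left out.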

Additional observations from a re-analysis of the deposited data

How the results depend on the processing

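No value of the 10 genes changed sign under any alternative run. At an adjusted p under 0.01, 3 genes were called lower and 0 higher, since TLR2 (-2.11), MYD88 (-1.43), IRAK1 (0.79) and IRAK3 (-1.01) missed it, and 18 genes of the pathway lists were lower and 0 higher. With a log2 change of at least 1, IRAK1 (0.79) was not called, so 0 of the 10 were higher, and 1 pathway gene was higher. IRAK4 was called lower with every gene that had a count (-0.85, adjusted p 0.0178), with DESeq2 (-0.84, adjusted p 0.0135) and in the fit that blocks on the replicate number (-0.82, adjusted p 0.00251). Leaving out 1 library each, which leaves a lone library assumed to vary like the others, gave 0 to 1 of the 10 higher and 5 to 7 lower, with log2 changes from 0.64 to 0.97 for IRAK1, from -1.15 to -0.86 for IRAK3 and from -1.05 to -0.60 for IRAK4, 1 to 3 pathway genes higher and 24 to 34 lower, and 415 to 1651 of all genes higher and 964 to 2641 lower.

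Over all genes, 2202 were higher and 3316 lower with every gene that had a count, 172 and 611 at a threshold of 0.01, and 794 higher with a log2 change of at least 1. Falls were 61.2% of all calls, or 51.5% with library size only. The block gave 3708 higher and 4201 lower, with 5 pathway genes higher, among them the adaptor TICAM1 (adjusted p 0.0454). It also called SMARCA4 higher (adjusted p 0.00248), SMARCA2 lower (0.0394), 2 other Toll-like receptors lower and 5 interferon response genes lower. Among the receptor co-factors, 1 gene was called higher with the block, DESeq2, every gene that had a count, the upper quartile or library size only, against 0 otherwise. Replicate 1 of both groups deviated together over genes (r = 0.44), but the labels give no shared batch and 2 pairs do not settle it. Some list genes that were not called changed sign, of which CNPY3 was called lower with the block and IKBKB without DMSO replicate 1. With library size only, IL18RAP was 0.0882, MAP3K7 0.0112 and TAB1 0.0486, and IL18RAP was 0.0315 with the upper quartile and 0.0194 with the newer edgeR fit. Over the fits with 1 library left out, log2 changes ran from -0.83 to 0.0492 for CNPY3, -0.45 to 0.30 for IL18RAP, -0.24 to 0.15 for TAB1, -0.0607 to 0.19 for UBE2V1, -0.23 to 0.0179 for RIPK1, -0.90 to 0.38 for IKBKB, -0.0045 to 0.40 for RNF216, -0.10 to 0.21 for OTUD4, -0.046 to 0.23 for HMGB1, -0.0287 to 0.10 for VCAN, -0.14 to 1.70 for ITGAM, -0.37 to 0.78 for SPI1 and -0.0414 to 0.25 for PBRM1. The cause was not tested in any of these cases.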
